A study of Mus musculus with 6 samples.

Results

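The genes described here modify and process Notch receptors, and they were Lfng, Mfng, Rfng, Pofut1, Adam10, Adam17, Numb, Maml1 and Maml2. They were chosen by symbol, and each of the 9 matched 1 of the 46517 genes in the count files. Notch ligands and receptors were not among them. Expression was measured by RNA sequencing in primary cultures of renal tubule epithelial cells (RTECs), which are cells grown out of mouse kidney. All 6 cultures came from wild type FvB mice, labelled as 4 to 6 weeks old, and spent 24 h in medium without serum. The 3 TGF-β1 cultures then received 50 ng/ml TGF-β1, a profibrotic cytokine, for 24 h, and the 3 CTL cultures were the controls. The sources used here do not say whether cultures came from separate animals or from pooled kidneys. The p-values therefore measure only the spread between these cultures, which may be technical in part. The question was how TGF-β1 altered transcripts of the Notch pathway in RTECs.

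Notch receptors carry sugars on their extracellular repeats that tune which ligands they answer. POFUT1 attaches the first fucose, and the fringe enzymes LFNG, MFNG and RFNG extend it with N-acetylglucosamine. A ligand on a neighbouring cell exposes the receptor to cutting by ADAM10, or in some settings by ADAM17, and γ-secretase then releases the intracellular part. NUMB directs receptors towards endocytosis and limits signaling. In the nucleus, proteins of the Mastermind-like family, encoded by Maml1, Maml2 and Maml3, join the released part of the receptor on the DNA-binding protein RBPJ and activate target genes.

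Promoter windows of 250 bases ending at the base before the RefSeq start site (GRCm38.p6) were matched for 8 of the 9 genes, with no entry for Mfng. Sequences are shown for Lfng and Maml2, the members past the threshold in the paired comparison described below, and for Rfng, a fringe gene that was not. They are written 5′ to 3′ on the strand of the gene, at chr5:140607091-140607340 (forward strand) for Lfng, chr11:120784205-120784454 (reverse strand) for Rfng and chr9:13297708-13297957 (forward strand) for Maml2. Capitals mark matches to the searched motifs.
Lfng: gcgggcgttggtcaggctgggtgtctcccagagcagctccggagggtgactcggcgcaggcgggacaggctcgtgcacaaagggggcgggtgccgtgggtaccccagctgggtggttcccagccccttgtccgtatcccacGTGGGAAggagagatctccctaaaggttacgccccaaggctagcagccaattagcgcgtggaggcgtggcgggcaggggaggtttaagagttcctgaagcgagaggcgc
Rfng: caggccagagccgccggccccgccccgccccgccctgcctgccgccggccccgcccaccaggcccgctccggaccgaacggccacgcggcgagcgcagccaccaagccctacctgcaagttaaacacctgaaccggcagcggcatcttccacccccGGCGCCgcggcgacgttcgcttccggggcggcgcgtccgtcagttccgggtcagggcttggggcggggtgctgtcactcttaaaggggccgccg
Maml2: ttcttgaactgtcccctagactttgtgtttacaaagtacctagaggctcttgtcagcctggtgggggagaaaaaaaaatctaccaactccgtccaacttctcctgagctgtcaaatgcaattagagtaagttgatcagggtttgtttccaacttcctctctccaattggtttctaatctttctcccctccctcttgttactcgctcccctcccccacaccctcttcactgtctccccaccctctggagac

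Both strands were searched for the RBPJ motif GTGGGAA, the SMAD palindrome GTCTAGAC, the shorter SMAD motif CAGAC, the GC-rich SMAD motif GGCGCC and the AP-1 motif TGANTCA. The Lfng window was the only member window with the RBPJ motif, 103 to 109 bases before the start site. That motif occurred in 5.42% of all 32851 promoter windows. The Rfng window held 1 GC-rich SMAD motif, as did 9.59% of all windows, and the Adam17 window held 2. The shorter SMAD motif, present in 42.2% of all windows, occurred in the first Numb window and in the window of a second Maml2 start site at chr9:13662210-13662459. No match to any of the 5 motifs was found in the Pofut1, Adam10 or Maml1 windows or in the Maml2 window shown above. A match describes the letters of a window and was not measured as binding. GC content was 66.0% in the Lfng window and 48.0% in the first Maml2 window, against a median of 52.4% over all windows.

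Counts on genes summed to between 28313080 and 34183497 per library, and no pair of libraries matched within sampling noise. Both replicate 2 cultures stood apart from the others. Their 4 measured Y-linked genes summed to at least 136 CPM (reads on a gene scaled to a common library total), against at most 0.177 CPM in the other 4 libraries. Replicate 2 thus held male cells and replicates 1 and 3 almost none, so they did not share all their animals. The paper states that the mice were male. All 7 tubule epithelium markers exceeded 1 CPM in every library, and their sum ranged from 1186 to 2838 CPM in CTL and from 935 to 2257 CPM in TGF-β1, lowest in replicate 2 of each group. Cdh1, Epcam, Krt8 and Krt18 carried that difference, whereas Pax8 in CTL was highest in replicate 2 (220 CPM against 218 and 197) and Cdh16 in CTL was lowest in replicate 3. Fibroblast markers, 5 of 7 above 1 CPM everywhere, summed to 1063, 2625 and 1088 CPM in CTL replicates 1, 2 and 3 and to 1402, 3224 and 1061 CPM in the TGF-β1 replicates. Of this list, Col1a1, Col1a2, Col3a1, Pdgfrb and Dcn were each highest in replicate 2 of each group. Pdgfrb reached 232 CPM there in CTL and 110 CPM in TGF-β1, and Dcn 12.6 and 6.78 CPM. Pdgfra stayed at or below 2.19 CPM and was lowest in replicate 2 of each group (0.900 CPM in CTL and 0.628 CPM in TGF-β1). In CTL it hardly differed from replicate 1, at 0.910 CPM. Lum was listed at 0 counts in CTL replicates 1 and 2. The part of other cell types in the results below was not tested, and in bulk cultures fewer cells of a type and less RNA per cell cannot be told apart. Proximal tubule markers were low, with 2 of 6 above 1 CPM everywhere and sums of 79.0 to 95.3 CPM in CTL and 34.0 to 47.9 CPM in TGF-β1. Lrp2 made up most of these sums, at 64.1 to 75.8 CPM in CTL and 27.7 to 40.9 CPM in TGF-β1. Aqp1 was also lower with TGF-β1, whereas Cubn was alike, at 4.24 to 4.89 and 4.15 to 5.08 CPM. Slc34a1, Slc5a2 and Slc22a6 stayed at or below 0.353 CPM.

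Among the 8 tested members, Lfng showed the largest difference with TGF-β1, at 1.55 times its CTL level, followed by Maml2 at 1.17 times. Both rises passed the threshold (adjusted p under 0.05) when cultures with the same replicate number were compared as pairs. Without the pairing neither passed it, with edgeR adjusted p = 0.124 for Lfng and 0.0667 for Maml2. Rfng, Pofut1, Adam10, Adam17, Numb and Maml1 passed it in neither fit, and Mfng was too scarce to test. Of the 8 tested members, the unpaired edgeR fit therefore called 0 higher and 0 lower, limma-voom also called 0 and DESeq2 called 2 higher. In the unpaired edgeR fit, 2 of the 8 members had an unadjusted p under 0.05, as did 4529 of the 15862 genes tested. Of all genes tested, limma-voom called 4.87% higher and DESeq2 7.57%. Over all 15862 genes tested, the unpaired fit called 11.7%, with 5.00% higher and 6.69% lower. With library size only in place of TMM it called 12.5%, with 3.20% higher. The paired fit called 2 of the 8 members higher and 0 lower, where it called 34.2% of all genes, with 15.1% higher and 19.1% lower. The median log2 fold change of the members was 0.075, against -0.0028 over all genes tested.

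**Figure D1:**
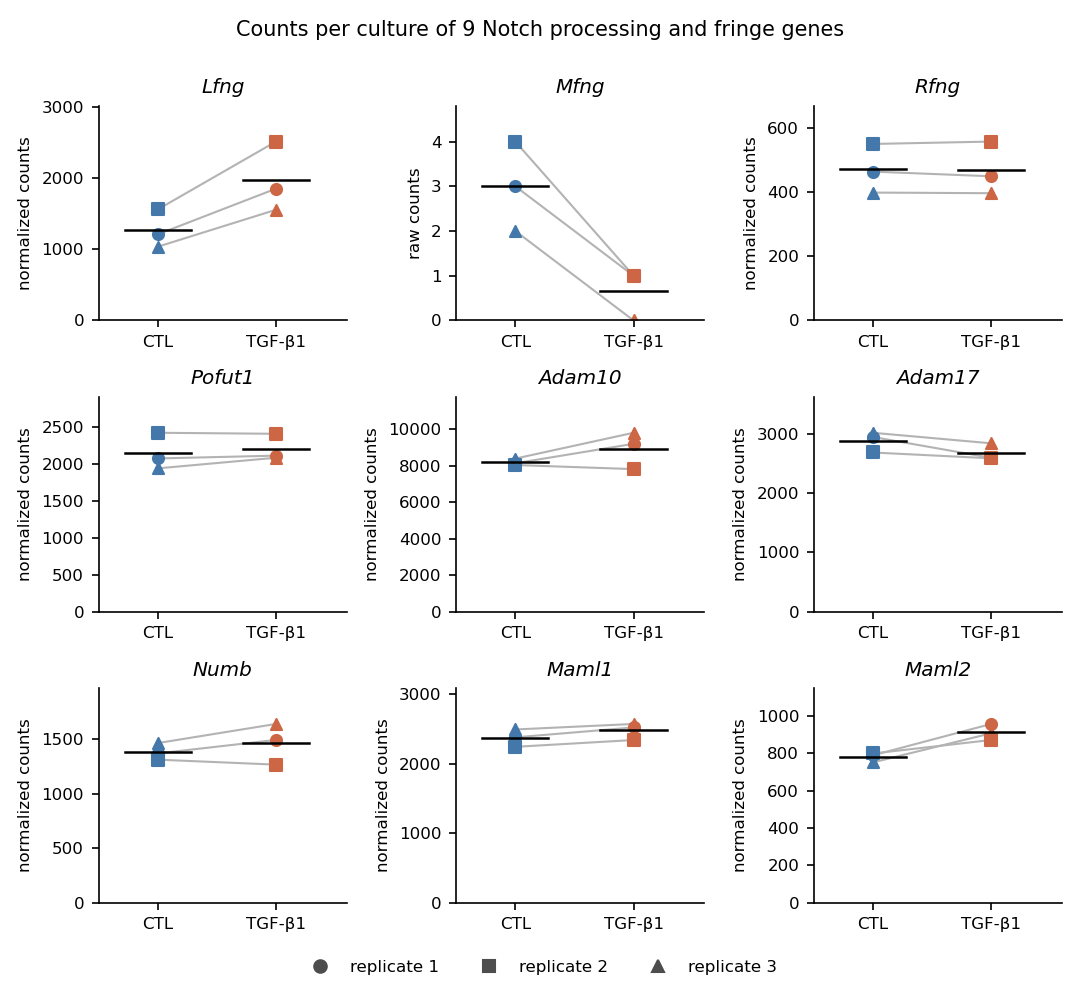
Counts of the 9 members in each culture, by group. Each point is 1 culture, grey lines join cultures with the same replicate number, black bars are group means, and the vertical axes start at 0 and give normalized counts, except raw counts for Mfng. The 3 Lfng lines all climb, from 1038 to 1563 in CTL to 1558 to 2519 in TGF-β1, while those of Rfng are nearly flat.

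Lfng (ENSMUSG00000029570, GRCm38 chr5:140607320-140615545, forward strand), which encodes lunatic fringe, had normalized counts of 1212, 1563 and 1038 in CTL replicates 1, 2 and 3 and of 1856, 2519 and 1558 in the TGF-β1 replicates. The groups overlapped, since CTL replicate 2 lay just above TGF-β1 replicate 3, yet each TGF-β1 culture was above the CTL culture of its own number. The rise within pairs was 1.53, 1.61 and 1.50 times, so the pairs were much closer to each other than the cultures of 1 group were. Group means were 1271 ± 268 and 1978 ± 492 (SD, n = 3 each). Without pairing the log2 fold change was 0.64 (SE 0.22, 95% interval 0.096 to 1.18). With the replicate number as a block it was 0.63 (SE 0.048, interval 0.52 to 0.74, edgeR adjusted p = 6.24e-05). Lfng was highest in replicate 2 of each group, above the mean of the other replicates by 0.48 in CTL and 0.57 in TGF-β1 on the log2 scale. The fibroblast marker sum was also highest there, as were Pdgfrb and Dcn of that list. Pdgfra, at or below 2.19 CPM, was lowest there, but in CTL only at 0.900 against 0.910 CPM in replicate 1. Without replicate 2 the log2 fold change was 0.60, with edgeR adjusted p = 0.0258 unpaired and 5.1e-05 paired.

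Rfng (ENSMUSG00000025158, chr11:120780746-120784207, reverse strand), which encodes radical fringe, had normalized counts of 465, 551 and 399 in CTL and of 449.9, 558 and 397 in TGF-β1. The 3 pairs were nearly equal, with the same order of replicates in each group. The paired log2 fold change was -0.011 (SE 0.068, edgeR adjusted p = 0.922), and its interval of -0.17 to 0.15 leaves out a rise of the size seen for Lfng. Mfng (ENSMUSG00000018169, chr15:78755882-78773475, reverse strand), encoding manic fringe, had raw counts of 3, 4 and 2 in CTL and of 1, 1 and 0 in TGF-β1. These values lay at or near the floor of 3 counts, which is 0.0878 to 0.106 CPM here, so no fold change is given. Floors of this kind cover counting error only.

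The balance between both detected fringe genes was taken within each library, where scaling between libraries has no effect. After division by exon length, Lfng stood above Rfng by log2 ratios of 1.37, 1.50 and 1.37 in CTL and 2.03, 2.16 and 1.96 in TGF-β1. All TGF-β1 libraries lay above all CTL libraries, and the mean ratio was 2.66-fold in CTL and 4.15-fold in TGF-β1. The log2 difference was 0.64, with pair differences of 0.66, 0.67 and 0.59. An exact two-sided permutation test gave p = 0.1, the smallest that 3 against 3 cultures allow, and 0.15 after adjustment over the 3 ratios tested.

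Pofut1 (ENSMUSG00000046020, chr2:153241533-153270247, forward strand) encodes the enzyme that adds the fucose on which fringes act. Its normalized counts were 2072, 2419 and 1938 in CTL and 2110, 2405 and 2081 in TGF-β1. Replicate 2 was highest in each group, as for Lfng and Rfng, and the groups overlapped. Replicate 2 was highest in both groups for 24.9% of all genes tested. The paired log2 fold change of Pofut1 was 0.040 (SE 0.046, interval -0.066 to 0.15, edgeR adjusted p = 0.546).

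**Figure D2:**
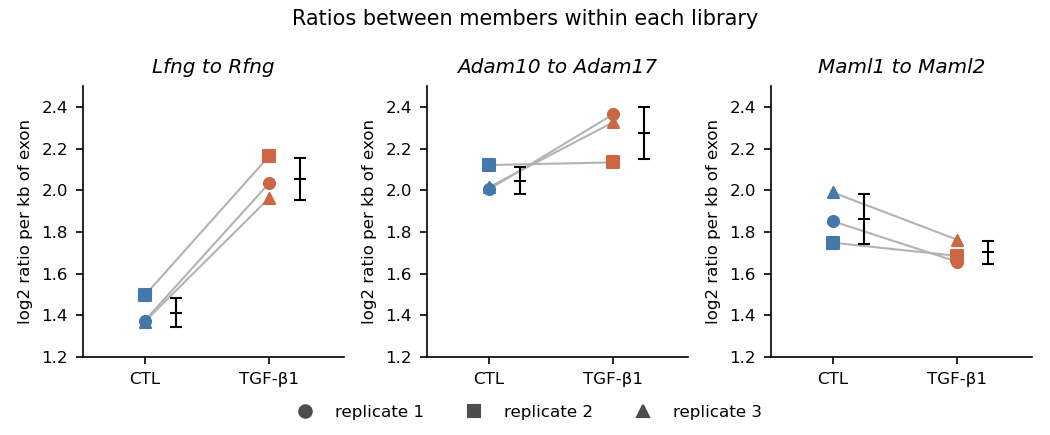
Log2 ratios per kb of exon between members within each library, for Lfng to Rfng, Adam10 to Adam17 and Maml1 to Maml2. Points are cultures, grey lines join replicate numbers and black bars give the mean ± SD of 3 libraries. The axes run from 1.2 to 2.5, and the Lfng to Rfng ratio moves from 1.41 ± 0.071 to 2.05 ± 0.10.

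The sheddase genes Adam10 and Adam17 passed the threshold in neither fit over 6 cultures. Adam10 (ENSMUSG00000054693, chr9:70678997-70780229, forward strand), the main protease of the ligand-dependent cut, had normalized counts of 8134, 8038 and 8391 in CTL and of 9200, 7813 and 9806 in TGF-β1. It was higher with TGF-β1 in pairs 1 and 3 and slightly lower in pair 2. The paired log2 fold change was 0.12 (SE 0.059, interval -0.015 to 0.26, edgeR adjusted p = 0.153). Without replicate 2 it was 0.20 with an adjusted p of 0.0070 in the paired edgeR fit and 0.0698 in the unpaired one, so replicate 2 decided that call. Adam10 was also lowest in replicate 2 of each group, as was the sum of the tubule epithelium markers, although Pax8 and Cdh16 did not follow it in CTL.

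Adam17 (ENSMUSG00000052593, chr12:21323509-21373632, reverse strand), a protease that also releases cytokines and growth factors, had normalized counts of 2953, 2691 and 3025 in CTL and of 2601, 2593 and 2847 in TGF-β1. The TGF-β1 culture had the lower count in 3 of 3 pairs, as for 32.6% of all genes tested, and the groups overlapped. The paired log2 fold change was -0.11 (SE 0.046, interval -0.21 to -0.0027, edgeR adjusted p = 0.106). Adam17 shares 311 bases of exon with Iah1 on the opposite strand, which is 4.35% of its exon length. The strand setting of the counting is not given in the sources used here. The ratio of Adam10 to Adam17 per kb of exon was 2.05 ± 0.065 in CTL and 2.27 ± 0.12 in TGF-β1 on the log2 scale (SD, n = 3 each). Its pair differences were 0.36, 0.013 and 0.31, with an exact permutation p = 0.1, or 0.15 after adjustment.

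Numb (ENSMUSG00000021224, chr12:83794034-83921934, reverse strand) had normalized counts of 1369, 1311 and 1463 in CTL and of 1492, 1266 and 1638 in TGF-β1. The groups overlapped, and the pairs were split, with log2 ratios of 0.12, -0.051 and 0.16. The paired log2 fold change was 0.080 (SE 0.057, interval -0.051 to 0.21, edgeR adjusted p = 0.317). Replicate 2 was lowest in both groups for Numb, Adam10, Adam17 and Maml1, as it was for 24.9% of all genes tested.

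Maml2 (ENSMUSG00000031925, chr9:13297957-13709388, forward strand) had normalized counts of 788, 798 and 750.2 in CTL and of 956, 870.1 and 906 in TGF-β1. Every TGF-β1 culture was above every CTL culture, which was so for no other tested member and for 17.2% of all genes tested. The log2 ratios within pairs were 0.28, 0.12 and 0.27, smallest in pair 2. With the block the log2 fold change was 0.23 (SE 0.059, interval 0.088 to 0.36, edgeR adjusted p = 0.0208). Without pairing it was 0.23 (SE 0.062, interval 0.077 to 0.37, edgeR adjusted p = 0.0667). The paired call was lost without replicate 1, where the log2 fold change was 0.20 with an adjusted p of 0.211 in edgeR. That fit called 16.8% of all genes, against 34.2% for the paired fit with all cultures.

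Maml1 (ENSMUSG00000050567, chr11:50255634-50292311, reverse strand) had normalized counts of 2383, 2246 and 2496 in CTL and of 2525, 2344 and 2575 in TGF-β1. It was higher with TGF-β1 in 3 of 3 pairs, as were Lfng, Maml2 and 30.4% of all genes tested, but its groups overlapped. The paired log2 fold change was 0.064 (SE 0.042, interval -0.034 to 0.16, edgeR adjusted p = 0.290). The log2 ratio of Maml1 to Maml2 per kb of exon was 1.86 ± 0.12 in CTL and 1.70 ± 0.055 in TGF-β1 (SD, n = 3 each), with an exact permutation p = 0.2. Maml3, the family member outside the 9 genes, fell by 0.30 on the log2 scale with the block (edgeR adjusted p = 0.0398) and had an adjusted p of 0.133 without it.

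**Figure D3:**
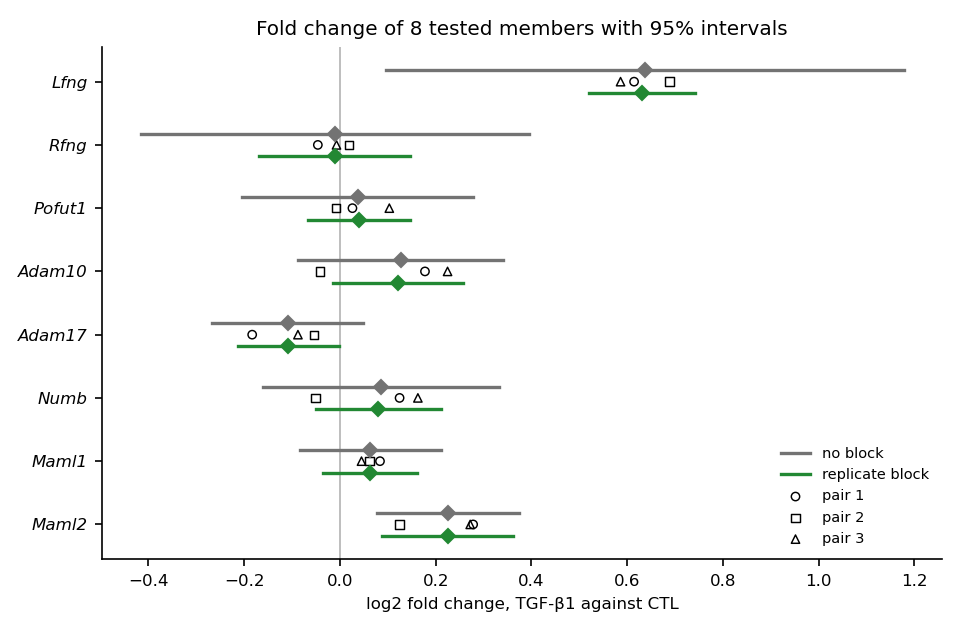
Log2 fold changes of the 8 tested members, TGF-β1 against CTL, with 95% intervals from the fits without and with the replicate block, and the log2 ratio of each same-numbered pair. Pairing shortens the Lfng interval from 0.096 to 1.18 down to 0.52 to 0.74, and the intervals of both fits lie above 0 for Lfng and Maml2.

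Levels between members were compared as normalized counts per kb of exon. In CTL, Adam10 was highest at 1666, followed by Lfng at 507, Maml1 at 430, Adam17 at 404, Numb at 353, Pofut1 at 216, Rfng at 189 and Maml2 at 118, with Mfng at 1.05. Lfng and Maml1 were not separated in CTL, where the log2 ratio was 0.22 ± 0.37 and 2 of 3 libraries had that order. In TGF-β1 the order was the same, and Lfng reached 789 against 449 for Maml1, in 3 of 3 libraries. Adam17 at 375 and Numb at 374 could not be told apart in TGF-β1, where the log2 ratio was 0.0088 ± 0.14. Lfng was therefore the predominant fringe transcript of these RTECs with and without TGF-β1, and Adam10 was the more abundant of both sheddase transcripts.

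**Figure D4:**
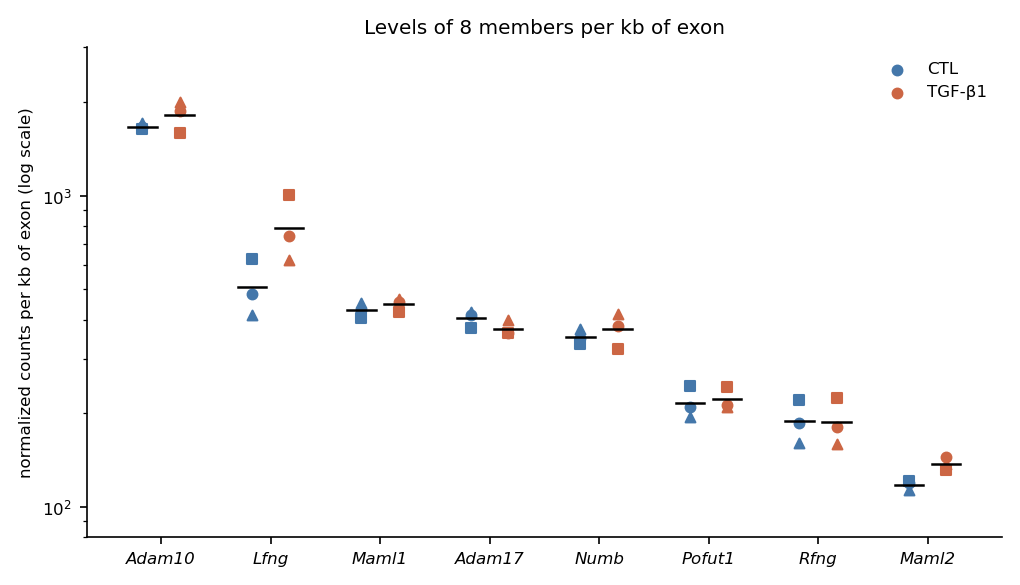
Normalized counts per kb of exon of 8 members, in CTL and TGF-β1 cultures, on a log axis. Points are cultures, with circles, squares and triangles for replicates 1, 2 and 3, and bars are group means. Adam10 sits highest at 1666 and 1820, Maml2 lowest at 118 and 138, and Mfng is left out for its low counts.

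The other genes of Notch processing were read from 7 lists holding 65 genes, of which 60 were tested. Without pairing 6 were higher and 3 lower, and with the block 14 were higher and 9 lower, at shares of all genes given above. The median log2 fold change of the 60 genes was -0.014. The genes past the threshold are named list by list, except where a gene is not reported here by name.

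Among 9 other listed genes of sugar-transferring enzymes, not all of which act on Notch repeats, 2 were higher without pairing, 3 with it and 0 lower. B4galt1, whose product adds galactose to the sugar made by fringes, went from 5926 ± 636 to 10090 ± 448 normalized counts (SD, n = 3 each), a log2 fold change of 0.77 (SE 0.086, edgeR adjusted p = 0.00687). Gxylt1, which encodes a xylosyltransferase of the O-glucose glycan, rose by 0.26 (adjusted p = 0.0161), a call lost without CTL replicate 1, CTL replicate 2 or TGF-β1 replicate 1, with adjusted p of 0.0504 to 0.0876. Its paralog Gxylt2 rose by 0.26 only in the paired fit (adjusted p = 0.00387). The fucosyl-, glucosyl- and GlcNAc-transferase genes Pofut2, Poglut1, Poglut2, Poglut3 and Eogt had log2 fold changes of -0.20 to 0.092 and passed in neither fit.

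Of 8 genes for furin and γ-secretase, Furin alone passed without pairing. FURIN makes the first cut of the receptor in the Golgi, and its transcript went from 8919 ± 745 to 12861 ± 693 normalized counts, a log2 fold change of 0.53 (SE 0.079, edgeR adjusted p = 0.0131). The Furin call was lost without CTL replicate 1 (adjusted p = 0.0749) and without TGF-β1 replicate 1 (0.0672). Psen2, Ncstn, Aph1a and Psenen, which encode γ-secretase subunits, passed in neither fit, with log2 fold changes of -0.082 to -0.023. Aph1b fell by 0.23 in the paired fit only (adjusted p = 0.0454). Reads aligning equally to it and to the near-identical Aph1c would be counted for neither gene.

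Of 10 tested partners and inhibitors of ADAM10 and ADAM17, 0 were higher and 1 lower without pairing, and 2 were higher and 4 lower with it. Tspan5, a tetraspanin that escorts ADAM10, went from 1948 ± 297 to 1094 ± 32.4 normalized counts, and fell by 0.83 on the log2 scale (SE 0.11, edgeR adjusted p = 0.0108). Without CTL replicate 1 its adjusted p was 0.0601, and without TGF-β1 replicate 1 it was 0.0572. In the paired fit 2 further tetraspanins of this group were lower, and Tspan15 fell by 0.85 (adjusted p = 0.00171) while Tspan33 fell by 0.42 (adjusted p = 0.0128). Tspan14 and Tspan17 passed in neither fit, with paired log2 fold changes of 0.067 and -0.015. Rhbdf2, which encodes an escort of ADAM17, fell by 0.24, and Frmd8, which stabilises that escort, was higher by 0.17 (adjusted p = 0.00725 and 0.0219 with the block). Timp1, a secreted metalloprotease inhibitor, was higher by 0.68 with the block (adjusted p = 0.00105). The other inhibitor gene of the list, Timp3, passed in neither fit, with a paired log2 fold change of 0.019 (edgeR adjusted p = 0.778).

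In receptor sorting and turnover, 1 of 9 tested genes was higher without pairing, 2 with it and 0 lower. Fbxw7, the ubiquitin ligase adaptor that marks the released Notch fragment for breakdown, went from 1478 ± 35.6 to 2050.3 ± 51.2 normalized counts, a log2 fold change of 0.47 (edgeR adjusted p = 0.00436). Numbl, the paralog of Numb, rose by 0.47 in the paired fit (adjusted p = 0.000277) and had an adjusted p of 0.352 without pairing. Among 6 ligand endocytosis genes, Neurl1b, a ubiquitin ligase acting on ligands, fell by 1.34 on the log2 scale (SE 0.19, edgeR adjusted p = 0.0113), from 146 ± 29.7 to 57.7 ± 5.11 normalized counts. Its adjusted p without TGF-β1 replicate 1 was 0.0586. Neurl1a fell by 0.71 with the block only (adjusted p = 0.0121), while Mib1 and Mib2 passed in neither fit.

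The nuclear complex list is not reported here in full. Of its genes, Hdac1 rose by 0.16 (adjusted p = 0.0254) and Kdm5a by 0.15 (adjusted p = 0.0292) with the block only. Both encode chromatin enzymes found with corepressors. Rbpj itself had a log2 fold change of -0.12 and passed in neither fit (adjusted p = 0.689, or 0.0992 with the block). Among 5 tested target genes, Hes1 rose by 0.22 (edgeR adjusted p = 0.0458) and Hey2 fell by 1.47 (adjusted p = 0.0494). The Hes1 call was lost on leaving out any 1 culture other than TGF-β1 replicate 2, with adjusted p of up to 0.164, and with library size only (0.153). It was also lost with no filter beyond 1 count (0.0519) and with at least 10 counts required in every library (0.0503). The Hey2 call, at 26 to 132 raw counts, was lost on leaving out any 1 culture other than CTL replicate 3, with adjusted p of up to 0.143. It was also lost in limma-voom (adjusted p = 0.0697) and, in edgeR, with at least 10 counts required in every library (0.0506). Heyl rose by 0.69 and Nrarp by 0.66 in the paired fit only (adjusted p = 0.0250 and 0.0277), at low counts of 18 to 90. Jag1, a ligand whose action fringe sugars modify, had a log2 fold change of 1.10 in the same cultures (edgeR adjusted p = 0.00436), and Notch2 one of 0.076 (adjusted p = 0.738). The receptor gene Notch4, at 29 to 220 raw counts, had a log2 fold change of 2.17 (edgeR adjusted p = 0.0100), a call lost when the replicate 1 culture of CTL (adjusted p = 0.0556) or of TGF-β1 (0.0538) was left out.

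Of the list genes called only in the paired fit, Tspan15, Rhbdf2, Timp1 and Numbl kept the paired call when any single replicate number was dropped. The paired fit called 34.2% of all genes with all cultures, 16.8% without replicate 1, 31.4% without replicate 2 and 36.4% without replicate 3. Fewer calls without replicate 1 were thus general. Without replicate 1 the paired call was lost for Gxylt2 (edgeR adjusted p = 0.0780), Aph1b (0.243), Tspan33 (0.0929), Frmd8 (0.262), Neurl1a (0.108), Maml3 (0.0799), Hdac1 (0.282), Kdm5a (0.270), Heyl (0.134) and Nrarp (0.176). It was also lost without replicate 2 for Aph1b (0.110), Maml3 (0.133) and Heyl (0.101), and without replicate 3 for Aph1b (0.0683), Kdm5a (0.101) and Nrarp (0.0637). Single cultures moved the unpaired log2 fold changes of several of these genes by over 1.5 times. Timp1 went from 0.72 (edgeR adjusted p = 0.206) to 0.31 without TGF-β1 replicate 2, and Numbl from 0.47 to 0.19 without TGF-β1 replicate 2 and to 0.75 without CTL replicate 2. Aph1b went from -0.23 to -0.070 without CTL replicate 2, to -0.15 without TGF-β1 replicate 1 and to -0.38 without TGF-β1 replicate 2. The unpaired values without 1 culture ranged from 0.12 to 0.41 for Gxylt2, -0.61 to -0.17 for Tspan33, -0.35 to -0.10 for Rhbdf2, -0.38 to -0.18 for Maml3 and 0.41 to 0.93 for Nrarp.

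**Figure D5:**
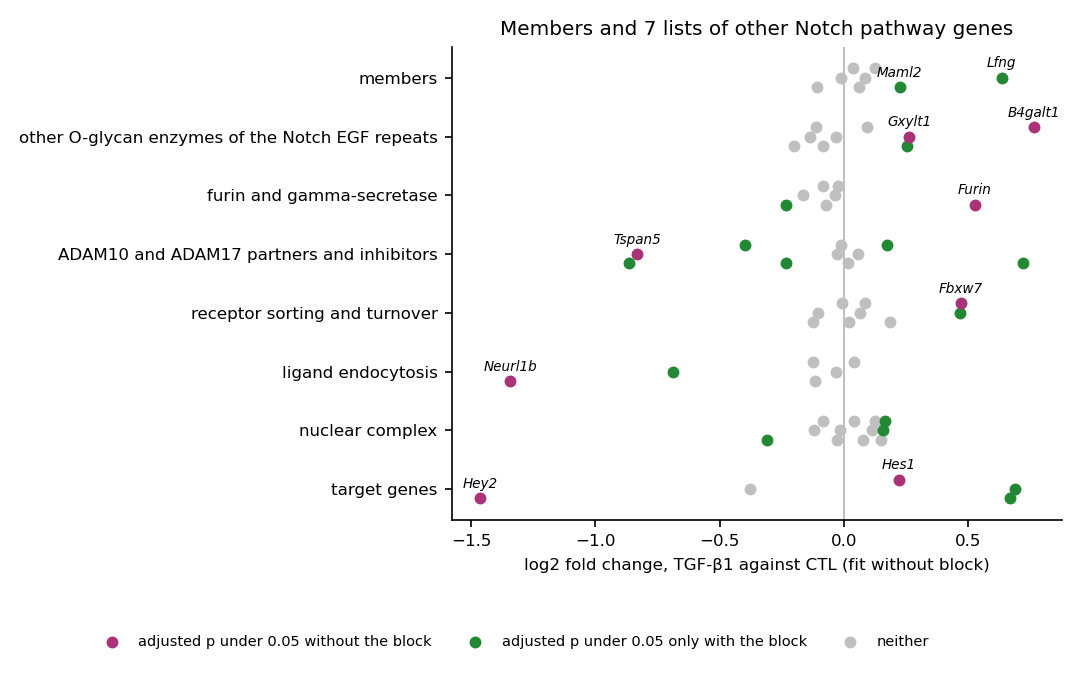
Log2 fold changes from the fit without the block for the 8 tested members and for 58 genes of 7 Notch pathway lists, 1 point per gene. Colour gives whether edgeR's adjusted p was under 0.05 without the block, only with it, or in neither fit. B4galt1 lies farthest to the right, at 0.77, and Neurl1b and Hey2 farthest to the left.

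The 5 genes with a pattern most like that of Maml2, the member with the smallest unpaired adjusted p, were sought among 10909 genes of at least 5 mean CPM over the 6 libraries. They were Atg2a (Pearson r = 0.999), Btbd11 (0.997), Lgals8 (0.996), Zfp407 (0.996) and Ranbp10 (0.996). These are the highest of many correlations over 6 libraries that share the group difference, and are given as a description.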

How the data were processed

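The authors isolated poly(A) RNA from 100 ng of RNA per culture, trimmed 50-bp single-end reads with Trim Galore, aligned them to GRCm38 with STAR 2.4.1d and counted them on genes with HTSeq 0.6.1. The deposited values are whole read counts per gene, without normalization. The 5 lines per file that name no gene, mostly reads aligning to several places, held 25.4 to 25.9% of the total and were left out. Reads had no molecular identifiers. Symbols, positions and exon lengths came from GENCODE M21, which matched 46005 of 46517 identifiers, and Poglut2 and Poglut3 were matched through RefSeq synonyms as Kdelc1 and Kdelc2.

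Counts were fitted in R 4.3.3 with edgeR 4.0.16 (filterByExpr, TMM, robust glmQLFit, glmQLFTest, two-sided) on 15862 genes, with Benjamini-Hochberg adjustment and a threshold of 0.05. Normalized counts are counts after TMM scaling. The unpaired fit is the main one, since the study names a two-tailed Student test and states no pairing. No label says what a replicate number stands for, so the pairing is an assumption read from the values. Deviations from group means correlated at 0.34, 0.684 and 0.572 for same numbers and at -0.617 to 0.215 for different numbers. Such deviations cancel within a group, which by itself pushes correlations between different numbers down. CTL replicate 1 correlated at 0.34 with TGF-β1 replicate 1 and at 0.215 with TGF-β1 replicate 3, so the match of replicate 1 was weak. The paired fit has the replicate number as a block. Ratios used exact permutation tests. Alternatives were DESeq2 1.42.0, limma-voom (limma 3.58.1), RLE scaling, library size only, 2 other filters, the block and leaving out cultures. Models were tried on simulated counts with no replicate effect and with changes larger than those of the members. The block and small changes were therefore not tested under the conditions of these data. Figures used matplotlib 3.10.9.

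The members and lists were chosen with earlier results of these data known. All 9 members are named, with the list genes past the threshold in either fit, Jag1, Notch2, Notch4, Rbpj and Hes1 as context, and the 5 genes most like the member of smallest adjusted p. Of the other ligands and receptors, only Dll4 passed, in the paired fit alone (log2 fold change 0.40, edgeR adjusted p = 0.0321). Of the list genes, 2 are not reported here by name or drawn, and the counts over all lists include them. List genes named as past the threshold in neither fit were chosen after their values were seen. Markers of thick ascending limb and distal tubule summed to 1.3 to 3.6 CPM, of collecting duct to 0.282 to 1.41, of endothelium to 2.57 to 4.84, of leukocytes to 3.67 to 8.69 and of podocytes to 19.6 to 36.9 CPM over the 6 libraries.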

Additional observations from a re-analysis of the deposited data

How the results depend on the processing

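Lfng and Maml2 were not called higher in the unpaired edgeR fit and were called with the replicate block, at log2 fold changes of 0.63 (adjusted p = 6.24e-05) and 0.23 (0.0208), and by DESeq2, at 0.64 (0.0321) and 0.23 (0.0483), so both settings called 2 members. The block changed no other member's call. Dropping a replicate number from CTL and TGF-β1 at once was chosen after seeing the data, and such fits with the block keep 1 residual degree of freedom. Lfng was called with the block at 0.64 (0.002) without replicate 1, 0.60 (5.1e-05) without replicate 2 and 0.65 (6.51e-11) without replicate 3, and unpaired at 0.60 (0.0258) without replicate 2. Maml2 was called with the block at 0.28 (0.00864) without replicate 2 and 0.20 (0.0427) without replicate 3, and Adam10 at 0.20 (0.0070) without replicate 2. These block fits called 1, 3 and 2 members without replicates 1, 2 and 3, where 6.43%, 14.3% and 16.1% of all genes were called higher, and the unpaired fit without replicate 2 called 1, where that share was 6.79%.

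In the 6 fits without 1 culture each, no member was called, and 1.83 to 7.81% of all genes were. Log2 fold changes then ranged from 0.42 to 0.81 for Lfng (adjusted p 0.0922 to 0.317, with 0.42 without TGF-β1 replicate 2), 0.055 (without TGF-β1 replicate 3) to 0.21 (without TGF-β1 replicate 2) for Adam10, 0.025 (without CTL replicate 2) to 0.10 (without CTL replicate 3) for Maml1, -0.16 to 0.12 for Rfng, -0.037 to 0.13 for Pofut1, -0.0021 to 0.18 for Numb and 0.19 to 0.25 for Maml2 (0.0726 to 0.211), and from -0.27 to 0.028 for Rbpj. Signs also turned for Rfng without replicate 1 (0.0063, or 0.0057 with the block) and, with library size only, for Pofut1 (-0.038) and Maml1 (-0.0098). The cause was not tested.

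Pathway genes higher numbered 6, and 14 with the block, 2 to 6 without 1 culture each, 0 without replicate 1 or replicate 3 unpaired, and 17 and 12 with the block without replicates 2 and 3. Pathway genes lower numbered 3, and 9 with the block, 0 to 4 without 1 culture each, 0 and 1 unpaired without replicates 1 and 3, and 5, 10 and 10 with the block without replicates 1, 2 and 3. Of all genes, the block fits called 16.8%, 31.4% and 36.4% in either direction without replicates 1, 2 and 3. The unpaired fit without replicate 3 called 1.78% of all genes, with 0.593% higher. The unpaired fit without replicate 1 called 0 of all genes, with 1938 at an unadjusted p under 0.05, and has 2 cultures a group. No Mfng to Rfng ratio was computed, since 1 library had 0 Mfng counts. With 3 cultures a group, the exact permutation tests of the ratios cannot go below p = 0.1, or 0.25 within pairs.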
